A study of Mus musculus with 6 samples.

Results

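The transcripts described here encode carriers and an enzyme that move and recycle glutamate and GABA in brain tissue. They are 8 of the 46078 genes counted, namely *Slc1a1*, *Slc1a2*, *Slc1a3*, *Slc6a11*, *Slc17a6*, *Slc17a7*, *Slc32a1*, and *Glul*. The genes were chosen by name, as genes known from glia or from neurons, to compare these classes between infarcts and contralateral cortices. By textbook knowledge, *Slc1a2*, *Slc1a3*, *Slc6a11*, and *Glul* are expressed mainly in astrocytes, and the other 4 in neurons. Neurons load glutamate or GABA into synaptic vesicles with vesicular carriers and release it at synapses. Astrocytes that surround the synapse take the transmitter up again with carriers in the plasma membrane. Much of the glutamate taken up is converted into glutamine by glutamine synthetase, and the glutamine returns to neurons as a precursor of new transmitter.

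RNA sequencing was performed on 3 infarcts and 3 contralateral cortices of wild type C57BL/6J male mice. By the sample records the mice were 3 months of age, with tissue taken 7 weeks after stroke, and the records do not say whether this age is that at stroke or at dissection. Stroke was induced by occlusion of the distal middle cerebral artery combined with hypoxia. Both regions came from mice with a stroke, so the contralateral cortex is tissue of an injured brain and not of a healthy one, and the records of these samples name no drug or vehicle. The methods of the study mention sequenced tissue of mice given the cyclodextrin HPβCD or vehicle, and treatment of the mice used here is not given in the sources used here. The records do not state which infarct and which cortex shared a mouse, or that the replicates came from separate animals, and *p* values then measure only the spread between these samples. The total of counts assigned to genes was 12146959, 12507336, and 13427057 for infarcts 1, 2, and 3. It was 19933962, 16610299, and 11943570 for contralateral cortices 1, 2, and 3.

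Markers of neurons and glia were read first as a check of the tissue labels. Levels are given as CPM, which is edgeR's per-million measure of the counts of a gene over the library total, scaled by the trimmed mean of M values. The summed level of 8 pan-neuronal markers was 629, 875, and 1590 CPM in infarcts 1, 2, and 3 and between 8804 and 9568 CPM in contralateral cortices, with *Syt1* as the most abundant in both regions. All 9 markers of cortical excitatory neurons were detected in contralateral cortices, and their sum lay between 3383 and 3489 CPM there against 272, 317, and 904 CPM in infarcts. None of these markers was at 0 in the infarcts.

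Infarct 3 stood apart from the other infarcts. *Fibcd1*, a gene of hippocampal CA1 neurons, had 0.239, 0.587, and 68.7 CPM in infarcts 1, 2, and 3, against 8.27 ± 0.788 CPM (SD, n = 3) in contralateral cortices. *Neurod6*, a transcription factor gene of excitatory neurons, had 1.83, 4.33, and 41.7 CPM in infarcts 1, 2, and 3 and between 35.6 and 41.7 CPM in contralateral cortices. *Cux2*, which marks neurons of the neocortex, did not share this pattern, with a range of 4.30 to 5.95 CPM over the 3 infarcts. Of the other hippocampal markers, *Prox1* had 34.9, 42.4, and 51.4 CPM, *Wfs1* 78.9, 103, and 111 CPM, and *Dsp* 1.99, 2.35, and 1.09 CPM in infarcts 1, 2, and 3. The part of hippocampal tissue in the values of infarct 3 was not tested. Fold changes of the 8 genes are therefore given with and without this library, which was singled out after its marker levels were seen. Those of other genes are given without it where this changes a call or moves the fold by over 1.5 times.

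Infarcts were compared with contralateral cortices by edgeR's quasi-likelihood test over 15554 genes with sufficient counts. A gene is called upregulated or downregulated at a Benjamini-Hochberg adjusted *p* under 0.05 with a fold change above 2, and log2 fold changes are infarct minus contralateral cortex. All 8 genes had sufficient counts, and 6 of 8 were downregulated in infarcts, where 20.9% of all genes tested were downregulated. None was upregulated, against 25.7% of all genes tested, and 46.6% of all genes tested were called in either direction. The median log2 fold change was -2.18 over the 8 genes and 0.03 over all genes tested. It was -1.22 over the 4 glial genes, of which 2 were downregulated, and -2.61 over the 4 neuronal genes, of which all 4 were downregulated. Without infarct 3, the same thresholds were passed by 6 genes, and the medians were -1.40 and -3.39. In bulk samples, fewer cells of a type and less RNA per cell cannot be told apart.

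**Figure D1:**
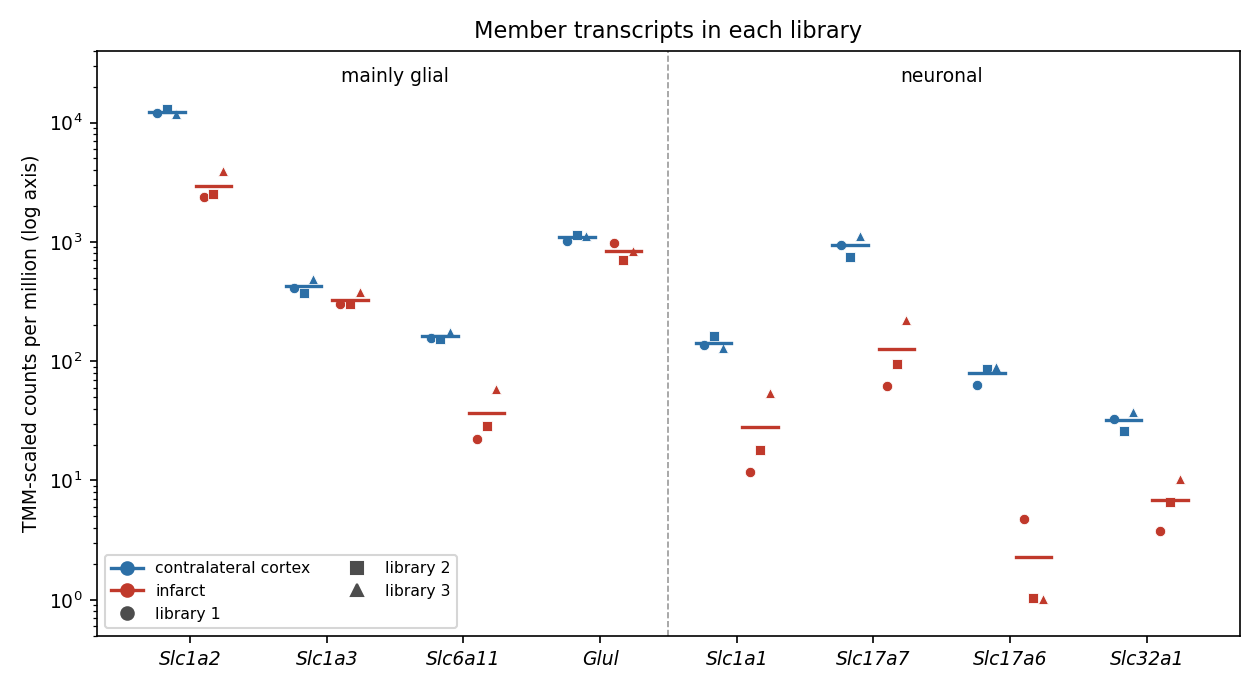
Levels of the 8 transcripts in each library, as CPM scaled by the trimmed mean of M values, on a log axis. Symbols are libraries 1 to 3 of each region and horizontal lines are means of 3 libraries. The infarct libraries lie below the contralateral libraries for 7 of 8 genes, as for 34.7% of all genes tested, and those of *Slc1a3* overlap.

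*Slc1a2* (ENSMUSG00000005089, GRCm38 chr2:102658659-102790784) encodes the glutamate carrier GLT-1, which clears most synaptic glutamate in the forebrain. It had 2376, 2500.4, and 3922 CPM in infarcts 1, 2, and 3, and 12106, 12994, and 11792 CPM in contralateral cortices 1, 2, and 3. Each infarct was far below each contralateral cortex, and infarct 3 was the highest infarct. The mean was 2933 ± 859 CPM (SD, n = 3) in infarcts, 4.19-fold below the contralateral mean of 12297 ± 624 CPM. The log2 fold change was -2.07 with a standard error (SE) of 0.24 and a 95% interval of -2.61 to -1.53 (adjusted *p* = 5.00e-05, edgeR quasi-likelihood test, Benjamini-Hochberg). Without infarct 3 it was -2.32.

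*Slc1a3* (ENSMUSG00000005360, chr15:8634124-8710764) encodes GLAST, the second main glutamate carrier of astrocytes. Its level was 300.1, 299.6, and 380.2 CPM in infarcts 1, 2, and 3, and 408, 374, and 489 CPM in contralateral cortices 1, 2, and 3. The regions overlapped, since infarct 3 was above contralateral cortex 2. The log2 fold change of -0.37 had an SE of 0.17 and a 95% interval of -0.76 to 0.01, and *Slc1a3* was not called (adjusted *p* = 0.0807, edgeR quasi-likelihood test, Benjamini-Hochberg). Without infarct 3 the log2 fold change was -0.48 and the adjusted *p* of the same edgeR test was 0.0183, with the fold change still below 2. Over all alternatives its adjusted *p* ranged from 0.0183 to 0.413.

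*Slc6a11* (ENSMUSG00000030307, chr6:114131241-114249952) encodes GAT-3, a GABA carrier found largely on astrocyte processes. It had 22.3, 28.4, and 59.0 CPM in infarcts 1, 2, and 3, and 155, 154, and 174 CPM in contralateral cortices 1, 2, and 3. The regions did not overlap, and infarct 3 was again the highest infarct. The mean of 36.6 ± 19.6 CPM (SD, n = 3) in infarcts was 22.7% of the contralateral mean of 161 ± 11.1 CPM. The log2 fold change was -2.14 (SE 0.34, 95% interval -2.94 to -1.34, adjusted *p* = 8.57e-04, edgeR quasi-likelihood test, Benjamini-Hochberg), and it was -2.65 without infarct 3.

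*Glul* (ENSMUSG00000026473, chr1:153899944-153909723) encodes glutamine synthetase, the enzyme that joins ammonia to glutamate. Its level was 981, 703, and 834 CPM in infarcts 1, 2, and 3, and 1018, 1131, and 1121 CPM in contralateral cortices 1, 2, and 3. Infarct 1 came close to contralateral cortex 1, yet the regions did not overlap. *Glul* was not called, with a log2 fold change of -0.38 (SE 0.18, 95% interval -0.77 to 0.02, adjusted *p* = 0.0843, edgeR quasi-likelihood test, Benjamini-Hochberg). Without infarct 1 the log2 fold change was -0.48 and the adjusted *p* of the same edgeR test was 0.0400, and without infarct 3 they were -0.36 and 0.0932. Over all alternatives its adjusted *p* ranged from 0.0400 to 0.361. With scaling by library totals, which moved the median of all genes by 0.20 on the log2 scale, *Glul* was at -0.18 and *Slc1a3* at -0.17.

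The glial genes were set beside 12 markers of astrocytes that take no part in glutamate or GABA uptake. Of these markers, 2 were upregulated, 2 were downregulated, and 8 were not called, with a median log2 fold change of -0.25 and a range of -1.19 to 1.68. Without infarct 3, 3 were downregulated. Their summed level was 2427, 2660, and 3048 CPM in infarcts 1, 2, and 3 and 2006, 1946, and 2246 CPM in contralateral cortices 1, 2, and 3. The most abundant was the water channel gene *Aqp4* in infarcts, at 1032 ± 166 CPM (SD, n = 3), and *Aldoc* in contralateral cortices, at 392.4 ± 74.5 CPM. All 6 markers of reactive astrocytes were upregulated, led in abundance by *Gfap* whose mean was 1080.4 CPM in infarcts and 38.6 CPM contralaterally. Their sum was 2671, 2595, and 3241 CPM in infarcts 1, 2, and 3 and at most 102 CPM contralaterally. The log2 fold changes of *Slc1a2* and *Slc6a11* lay below that of each of the 12 astrocyte markers, whereas those of *Slc1a3* and *Glul* lay within their range. Those of *Slc1a2* and *Slc6a11* stayed below each marker without infarct 3. The 12 markers were chosen with earlier results of these data known and do not stand for all astrocyte genes. The part of astrocyte number or reactivity in these values was not tested, nor was that of other cell types in the reactive astrocyte markers.

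*Slc17a7* (ENSMUSG00000070570, chr7:45163949-45176142) encodes VGLUT1, which fills synaptic vesicles with glutamate in most excitatory neurons of the cortex. It had 62.4, 95.1, and 223 CPM in infarcts 1, 2, and 3, and 943, 748, and 1114 CPM in contralateral cortices 1, 2, and 3. The regions did not overlap, and the infarcts differed among themselves by 3.57-fold. *Slc17a7* fell, with a log2 fold change of -2.88 (SE 0.48, 95% interval -4.01 to -1.76, adjusted *p* = 0.00131, edgeR quasi-likelihood test, Benjamini-Hochberg), which is 7.38-fold. Without infarct 3 the difference was 11.7-fold.

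*Slc17a6* (ENSMUSG00000030500, chr7:51622006-51671119) encodes VGLUT2, the vesicular glutamate carrier of thalamic and many other subcortical neurons. Counts were 60, 14, and 15 in infarcts 1, 2, and 3, compared with 1207, 1331, and 969 in contralateral cortices 1, 2, and 3. As levels these were 4.78, 1.03, and 1.02 CPM in infarcts, compared with 63.0, 86.7, and 89.4 CPM contralaterally. Here infarct 1 was the highest infarct, unlike for the other neuronal genes, and the regions were far apart. For *Slc17a6* this gave a log2 fold change of -5.15 (SE 0.59, 95% interval -6.54 to -3.76, adjusted *p* = 2.06e-04, edgeR quasi-likelihood test, Benjamini-Hochberg), which is 35.5-fold. It was the 10th largest fall among 3256 downregulated genes. Without infarct 1 the difference was 75.9-fold, and without infarct 3 it was 27.5-fold.

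*Slc32a1* (ENSMUSG00000037771, chr2:158610767-158615748) encodes VGAT, which loads GABA and glycine into vesicles of inhibitory neurons. Its level was 3.74, 6.61, and 10.2 CPM in infarcts 1, 2, and 3, and 33.1, 26.0, and 37.3 CPM in contralateral cortices 1, 2, and 3. No infarct reached the lowest contralateral cortex. The log2 fold change was -2.22 (SE 0.33, 95% interval -2.97 to -1.47, adjusted *p* = 3.31e-04, edgeR quasi-likelihood test, Benjamini-Hochberg), and -2.61 without infarct 3.

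*Slc1a1* (ENSMUSG00000024935, chr19:28835049-28913960) encodes EAAC1, a glutamate and cysteine carrier on the cell bodies and dendrites of neurons. It had 11.8, 18.1, and 54.5 CPM in infarcts 1, 2, and 3, and 137, 162, and 128 CPM in contralateral cortices 1, 2, and 3. The regions did not overlap, but infarct 3 was well above the other infarcts. *Slc1a1* was downregulated at a log2 fold change of -2.33 (SE 0.56, 95% interval -3.67 to -0.9996, adjusted *p* = 0.00912, edgeR quasi-likelihood test, Benjamini-Hochberg), a 5.04-fold difference that became 9.40-fold without infarct 3. Without a filter on low counts the adjusted *p* of the same edgeR test was 0.0588, the highest over the alternatives, and *Slc1a1* was not called.

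Markers of neurons moved with the neuronal genes. All 8 pan-neuronal markers were downregulated with a median log2 fold change of -3.07, and 8 of 9 excitatory markers were downregulated with a median of -3.00, which became -3.63 without infarct 3. *Neurod6* was the exception, and without infarct 3 all 9 were downregulated. All 8 inhibitory markers were downregulated with a median of -2.50. The most abundant of them was *Cck*, with means of 15.1 CPM in infarcts and 85.9 CPM contralaterally. Its level was 8.84, 5.95, and 30.6 CPM in infarcts 1, 2, and 3. Summed, the inhibitory markers had 27.7, 22.8, and 62.0 CPM in infarcts 1, 2, and 3 and between 184 and 243 CPM in contralateral cortices. *Cck* alone held 30.6 of the 62.0 CPM in infarct 3, and the part of excitatory neurons in its values was not tested. The most abundant excitatory marker was *Camk2a*, at 219, 245, and 782 CPM in infarcts 1, 2, and 3. The log2 fold changes of *Slc17a7*, *Slc1a1*, and *Slc32a1* lay within the range of the 3 neuronal lists. That of *Slc17a6* lay below the lowest of these markers, at -3.89. Of 5 thalamic markers, 2 (*Tcf7l2* and *Prkcd*) were upregulated and 1 was downregulated, while *Lhx9* and *Tnnt1* had too few counts to be tested. The part of other cell types in the values of these markers was not tested. The part of neuron number in the values of the neuronal genes was not tested.

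**Figure D2:**
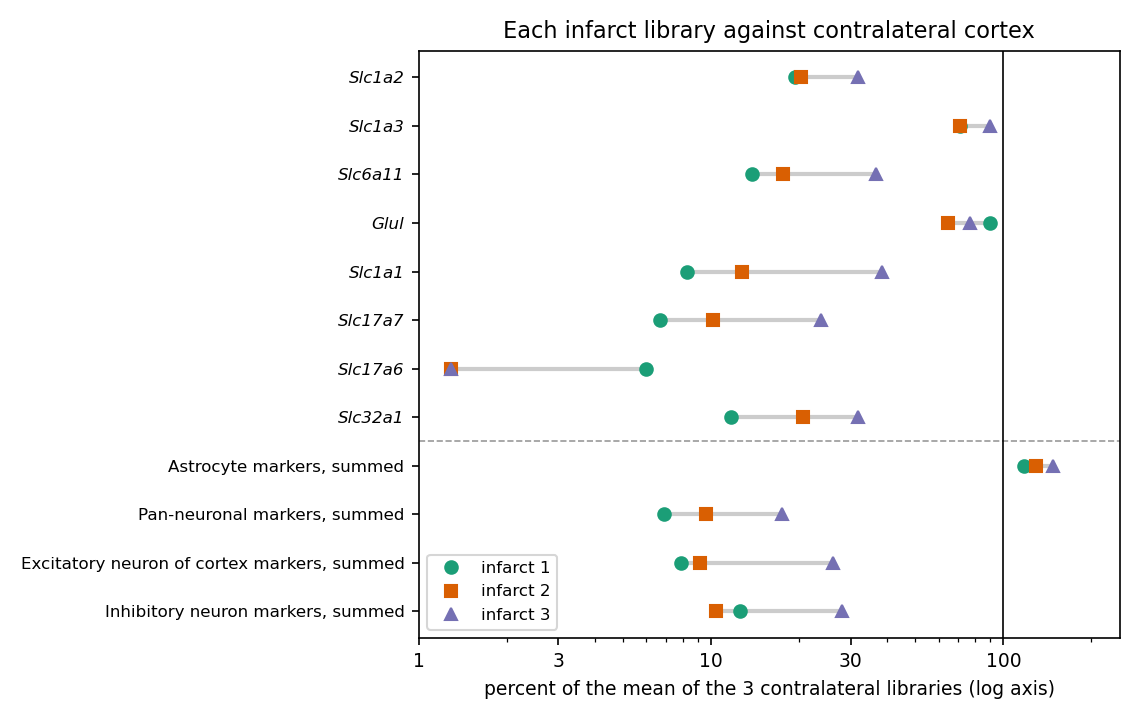
Level in each infarct library as a percent of the mean of the 3 contralateral libraries, on a log axis, for the 8 transcripts and for summed cell type markers. Infarct 3 lies at 31.9% for *Slc1a2* and 23.8% for *Slc17a7*, against 17.5% for summed pan-neuronal markers and 148% for summed astrocyte markers. The astrocyte sum lies at 117% and 129% in infarcts 1 and 2. In infarct 3, *Aqp4* alone holds 1218 of the 3048 CPM of this sum. The median log2 fold change of the astrocyte markers is -0.25.

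Among the infarcts, infarct 3 had the highest level of 6 of 8 genes and infarct 1 the lowest level of 5 of 8. The exceptions at the top were *Glul* and *Slc17a6*, which were highest in infarct 1. The same order was frequent among downregulated genes, with infarct 3 highest for 75.5% and infarct 1 lowest for 65.7% of the 3256 genes. Over all genes tested, infarct 3 was highest for 35.2%. The infarcts of 7 of 8 genes lay below the contralateral cortices without overlap, as was the case for 34.7% of all genes tested. The opposite arrangement, seen in 37.6% of all genes tested, was found for none of the 8.

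Levels between genes were compared per length, as CPM divided by the kilobases of exon (RPKM). In contralateral cortices, *Slc1a2* was highest at 936 ± 47.5 RPKM (SD, n = 3) and ranked 14th of 45229 genes with a known length. *Glul* followed at 328 ± 18.8 RPKM, *Slc17a7* at 173 ± 34.0 RPKM, *Slc1a3* at 49.6 ± 6.93 RPKM, and *Slc6a11* at 31.9 ± 2.20 RPKM, each apart from its neighbors. *Slc1a1* at 17.2 ± 2.13 RPKM, *Slc17a6* at 14.8 ± 2.69 RPKM, and *Slc32a1* at 11.5 ± 2.03 RPKM overlapped with their neighbors in this order. In infarcts, *Glul* at 253 ± 41.8 RPKM and *Slc1a2* at 223 ± 65.4 RPKM were the highest and overlapped, with *Slc1a2* ranked 89th. Below them came *Slc1a3* at 38.3 ± 5.43 RPKM, *Slc17a7* at 23.5 ± 15.7 RPKM, *Slc6a11* at 7.24 ± 3.89 RPKM, *Slc1a1* at 3.41 ± 2.79 RPKM, and *Slc32a1* at 2.45 ± 1.16 RPKM, with overlap between neighbors in this order. *Slc17a6* was the lowest at 0.422 ± 0.401 RPKM, apart from the rest.

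The transcript shares of the plasma membrane glutamate carriers were compared between regions. The summed level of *Slc1a1*, *Slc1a2*, and *Slc1a3* was 217, 228, and 350 RPKM in infarcts 1, 2, and 3 and 986, 1053, and 971 RPKM in contralateral cortices 1, 2, and 3. *Slc1a2* made up 93.3 ± 0.749% (SD, n = 3) of this sum in contralateral cortices and 84.1 ± 1.16% in infarcts. The share of *Slc1a3* was 4.97 ± 0.878% in contralateral cortices and 14.8 ± 1.80% in infarcts. Within each library the counts of *Slc1a2* exceeded those of *Slc1a3* by 7.92, 8.35, and 10.3 times in infarcts 1, 2, and 3 and by 29.7, 34.8, and 24.1 times in contralateral cortices 1, 2, and 3. The log2 ratio differed by -1.73 between regions without overlap (*p* = 0.1, exact two-sided permutation test, the smallest *p* that 3 against 3 libraries allow).

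Further ratios were taken in the same way. The ratio of *Slc1a3* to *Glul* counts was 0.306, 0.426, and 0.456 in infarcts 1, 2, and 3 and between 0.330 and 0.436 in contralateral cortices, with a log2 difference of 0.01 (*p* = 1, exact two-sided permutation test). *Slc1a2* to *Slc6a11* was 107, 88.0, and 66.5 in infarcts 1, 2, and 3 and between 67.7 and 84.2 in contralateral cortices, with a log2 difference of 0.16 (*p* = 0.5, exact two-sided permutation test). Both of these ratios overlapped between regions. *Slc17a7* to *Slc32a1*, a ratio of excitatory to inhibitory vesicular carriers, was 16.7, 14.4, and 21.8 in infarcts 1, 2, and 3, compared with 28.5, 28.7, and 29.9 in contralateral cortices 1, 2, and 3. It did not overlap between regions, with a log2 difference of -0.77 (*p* = 0.1, exact two-sided permutation test). *Slc17a6* to *Slc17a7* was 0.0766, 0.0108, and 0.00460 in infarcts 1, 2, and 3 and between 0.0669 and 0.116 in contralateral cortices. The log2 difference was -2.32, and the value of infarct 1 lay within the contralateral range (*p* = 0.2, exact two-sided permutation test). Over all 28 pairs of the 8 genes, the largest log2 difference in size was 5.01, for *Slc1a3* to *Slc17a6*. The smallest Benjamini-Hochberg adjusted *p* over the 28 exact permutation tests was 0.147.

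For each gene, the 3 most similar genes were found among 9675 genes with a mean of at least 10 CPM. Similarity was the root mean square (RMS) difference of log2 CPM centered on the gene's own mean, over 6 libraries. The most similar to *Slc1a2* were *1700025G04Rik*, *Scai*, and *Chst10*, with RMS differences of 0.051, 0.071, and 0.075. *Slc6a11* was followed most closely by *Elovl2*, *Nlgn1*, and *Prrt1*, with RMS differences of 0.053, 0.056, and 0.064. *Slc17a7* had *Phyhip*, *Dnm1*, and *Jph3* at 0.079, 0.10, and 0.11, and *Slc32a1* had *Rasl10b*, *Ncs1*, and *Rnft2* at 0.10, 0.10, and 0.11. *Slc1a1* had *Rnf165*, *Dpp6*, and *Cacna2d3* at 0.088, 0.11, and 0.12. *Slc1a3* had *Chst2*, *Hgs*, and *Ints1* at RMS differences of 0.042, 0.042, and 0.043, and *Glul* had *Zfp398*, *Rbm14*, and *Hacd3* at 0.051, 0.052, and 0.053. No gene was as close to *Slc17a6*, whose nearest were *Cbln2*, *Ankrd34c*, and *Kcnh5* at 0.35, 0.35, and 0.43.

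Of 29 other genes of glutamate and GABA transport and metabolism, 28 had sufficient counts. Of these 28, 6 were upregulated, 12 were downregulated, and 10 were not called, with a median log2 fold change of -0.95. Without infarct 3, 7 were upregulated and 15 downregulated. *Slc1a7* had 0 counts in all 6 libraries.

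All 4 genes of GABA synthesis and breakdown were downregulated. *Gad1*, which encodes a glutamate decarboxylase that makes GABA, had 25.4, 47.7, and 53.2 CPM in infarcts 1, 2, and 3 and 326, 307, and 320.0 CPM in contralateral cortices 1, 2, and 3. *Gad1* was at a log2 fold change of -2.91 (SE 0.26), and that of *Gad2*, the other glutamate decarboxylase gene, was -2.41 (SE 0.38). *Abat* and *Aldh5a1*, which break GABA down, were at -1.08 and -1.65. *Abat* was not called without infarct 2 (-0.955), without contralateral cortex 2 (-0.9998), or with library totals (-0.88). Of the GABA carrier genes named here besides *Slc6a11*, both were upregulated, *Slc6a13* with 33.5, 11.5, and 21.4 CPM in infarcts 1, 2, and 3 against 7.77 ± 1.27 CPM (SD, n = 3) in contralateral cortices, and *Slc6a12* with a log2 fold change of 1.68. *Slc6a12* and *Slc6a13* encode carriers of GABA and betaine or taurine that are best known from the meninges, liver, and kidney. The 7 markers of fibroblasts and leptomeninges were all upregulated, with a sum of 5783, 5342, and 4706 CPM in infarcts 1, 2, and 3 and at most 131 CPM in contralateral cortices. Their most abundant gene in infarcts was *Col1a2*, at 1968 CPM, and the part of these cells in the values of *Slc6a12* and *Slc6a13* was not tested.

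Several genes of glutamate synthesis and breakdown lay close to the threshold on the fold change. *Gls2*, which encodes a glutaminase that turns glutamine into glutamate, was downregulated at a log2 fold change of -3.22 (SE 0.30). *Got1*, an aspartate aminotransferase gene, was also downregulated, by 4.01-fold. *Glud1*, *Got2*, *Gpt*, *Gpt2*, and *Pc* were not called, with log2 fold changes of 0.15, -0.92, -0.98, 0.82, and -0.97. For the last 4 of these the adjusted *p* of edgeR's quasi-likelihood test was at most 0.00323, with a fold change below 2. Some alternatives took them past it. Without infarct 3, *Got2*, *Gpt*, and *Pc* were downregulated at -1.08, -1.17, and -1.07, and with library totals *Gpt2* was upregulated at 1.03.

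Carriers of amino acids across membranes moved in both directions. *Slc1a5*, which encodes the glutamine and neutral amino acid carrier ASCT2, had 29.9, 15.4, and 16.5 CPM in infarcts 1, 2, and 3 and between 0.836 and 1.29 CPM in contralateral cortices. It was upregulated at a log2 fold change of 4.34 (SE 0.35). *Slc7a11*, which encodes the light chain of the cystine and glutamate exchanger, had 1034, 311, and 499 CPM in infarcts 1, 2, and 3 and 225, 179, and 195 CPM in contralateral cortices 1, 2, and 3. Infarct 1 was the highest by far, and the log2 fold change was 1.62 (SE 0.41). Without a filter on low counts *Slc7a11* was not called (adjusted *p* = 0.0697, edgeR quasi-likelihood test, Benjamini-Hochberg, the highest over the alternatives). *Slc38a2*, a glutamine carrier gene, was upregulated at 1103, 1256, and 806 CPM in infarcts 1, 2, and 3 against 283 ± 39.2 CPM (SD, n = 3) in contralateral cortices. The glutamine carrier genes *Slc38a1*, *Slc38a3*, and *Slc38a5* were not called, with log2 fold changes of 0.16, 0.19, and 0.94. *Slc38a5* was upregulated without infarct 3 (1.197, adjusted *p* = 0.0218, edgeR quasi-likelihood test, Benjamini-Hochberg) and with library totals (1.14). *Slc1a4* and *Slc1a6* were downregulated at -1.16 and -2.88, the latter with at most 25 counts in an infarct and at -3.74 without infarct 3. *Slc1a4* was not called without infarct 1 (-0.98) or with library totals (-0.95). *Slc17a8*, which encodes the vesicular glutamate carrier VGLUT3, was not called at a log2 fold change of -0.81. Of the mitochondrial carriers, *Slc25a12* and *Slc25a22* were downregulated at -1.33 and -1.97, *Slc25a13* was upregulated at 3.04, and *Slc25a18* was not called at -0.71.

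**Figure D3:**
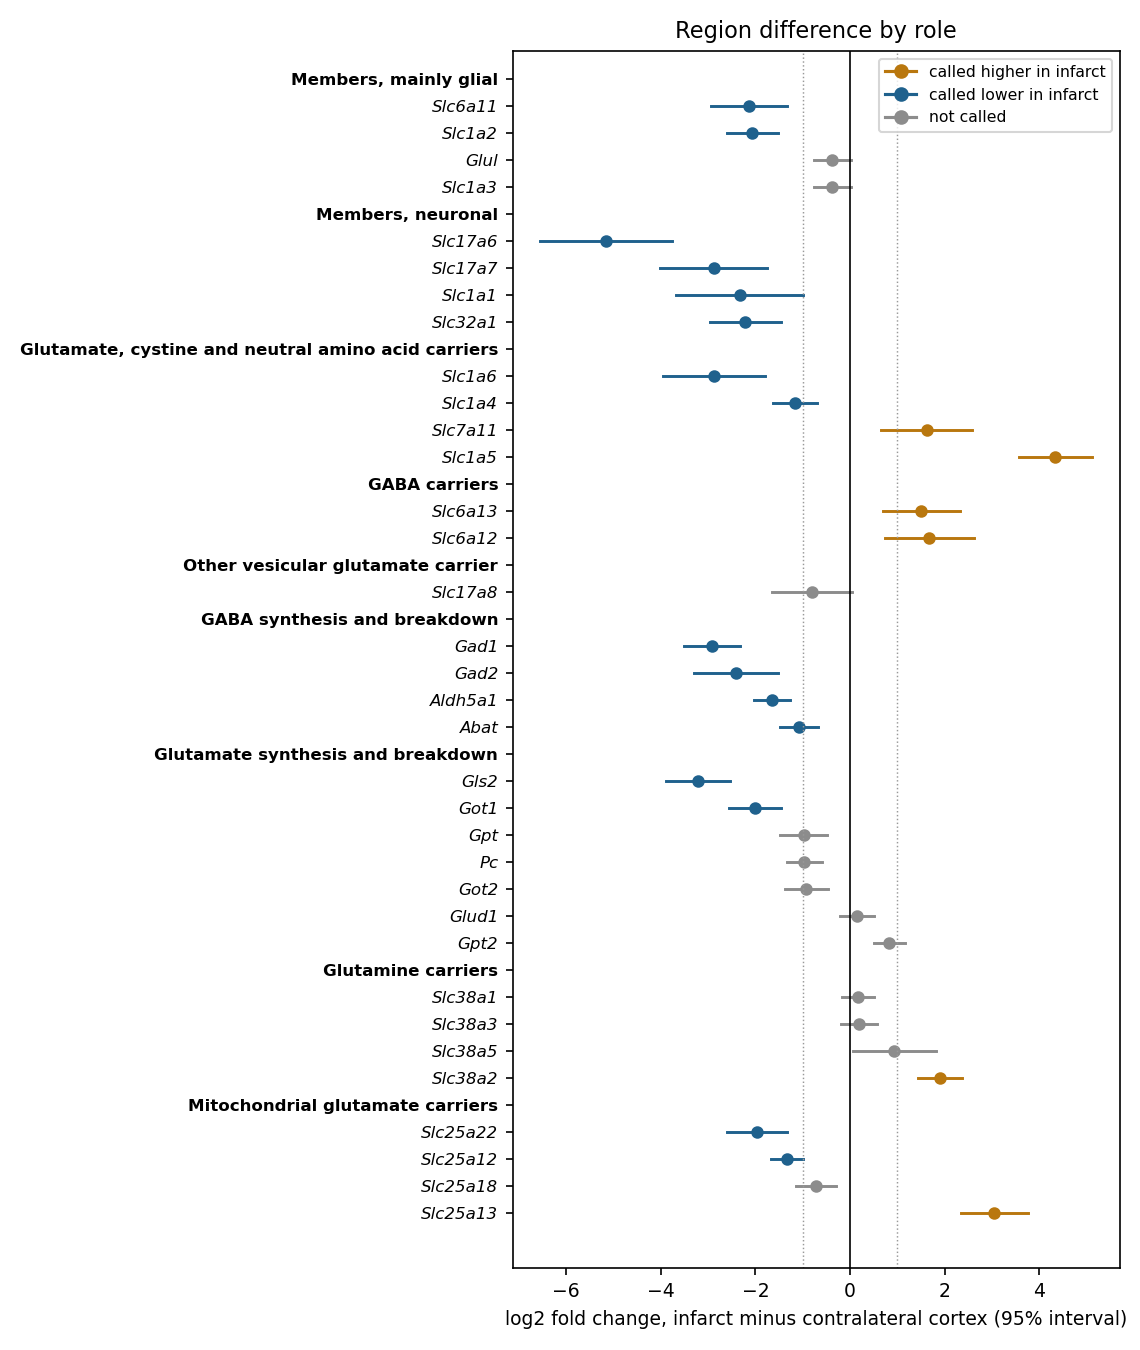
Log2 fold changes between infarct and contralateral cortex with 95% intervals from edgeR, for the 8 transcripts and 26 of the 28 related genes with sufficient counts, grouped by role. Dotted lines mark a fold change of 2 in either direction. All 4 neuronal transcripts lie to the left, and *Slc1a5* lies farthest to the right at 4.34.

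Counts of overlapping genes may miss or hold reads of shared bases, since the strand setting of the counting is not given in the sources used here. Reads tallied as ambiguous between genes, which count for no gene, were between 2.35% and 2.64% of tallied reads. Of the exon bases of *Slc1a1*, 31.9% lie opposite exons of *4430402I18Rik*, which had between 22 and 27 counts in infarcts and between 30 and 58 in contralateral cortices. Of the exon bases of *Slc32a1*, 24.9% lie opposite *Gm14205*, which had 0 counts in all 6 libraries. Reads of these genes and their antisense partners cannot be told apart without strand. Of the 75-base windows of transcripts, 30.4% for *Slc1a1* and 23.0% for *Slc32a1* also occur, on either strand, in transcripts of these antisense partners. For *Glul* 6.63% occur in transcripts of other genes, among them the pseudogene *Glns-ps1*. The share was below 1% for *Slc1a2* and *Slc1a3* and 0% for *Slc6a11*, *Slc17a6*, and *Slc17a7*.

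Promoter sequence is shown for a glial gene that was not called, a glial gene that was downregulated, and both downregulated vesicular glutamate carrier genes. Each is the 250 bases before a RefSeq transcription start on GRCm38.p6, 5′ to 3′ on the strand of the gene, in a window that holds no annotated exon. For *Slc17a6* it is the start farther upstream. Capitals mark matches on either strand to the TATA box TATAAA, the CCAAT box CCAAT, the GC box GGGCGG, the cyclic AMP response element core TGACGT, and the E box CACGTG.
*Slc1a3*, chr15:8710808-8711057, minus strand: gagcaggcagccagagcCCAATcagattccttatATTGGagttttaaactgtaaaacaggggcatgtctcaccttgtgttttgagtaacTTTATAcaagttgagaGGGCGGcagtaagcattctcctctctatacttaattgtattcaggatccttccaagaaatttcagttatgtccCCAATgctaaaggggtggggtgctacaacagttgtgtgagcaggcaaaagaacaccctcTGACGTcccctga
*Slc6a11*, chr6:114130991-114131240, plus strand: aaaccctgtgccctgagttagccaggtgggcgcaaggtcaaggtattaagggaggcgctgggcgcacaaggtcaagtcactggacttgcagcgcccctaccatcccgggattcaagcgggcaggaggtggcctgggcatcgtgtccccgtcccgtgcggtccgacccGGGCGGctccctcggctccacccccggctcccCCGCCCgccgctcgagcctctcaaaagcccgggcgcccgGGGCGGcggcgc
*Slc17a6*, chr7:51621580-51621829, plus strand: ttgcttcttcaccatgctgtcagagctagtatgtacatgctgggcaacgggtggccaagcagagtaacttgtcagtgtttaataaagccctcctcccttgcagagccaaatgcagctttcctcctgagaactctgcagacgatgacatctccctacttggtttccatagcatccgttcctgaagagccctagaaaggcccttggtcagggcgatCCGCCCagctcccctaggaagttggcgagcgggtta
*Slc17a7*, chr7:45163671-45163920, plus strand: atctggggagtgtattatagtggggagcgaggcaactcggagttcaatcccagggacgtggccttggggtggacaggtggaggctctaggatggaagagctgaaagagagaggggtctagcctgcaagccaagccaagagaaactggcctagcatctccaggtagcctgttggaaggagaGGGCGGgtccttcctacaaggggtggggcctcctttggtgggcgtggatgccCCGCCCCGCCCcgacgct

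Among 32851 RefSeq promoter windows of this length, 12.4% held TATAAA, 33.8% CCAAT, 32.7% GGGCGG, 6.47% TGACGT, and 6.02% CACGTG. The *Slc1a3* window held 1 TATA box, 3 CCAAT boxes, 1 GC box, and 1 cyclic AMP response element core. The *Slc6a11* and *Slc17a7* windows held 3 GC boxes each, of which a pair in *Slc17a7* overlap, and the *Slc17a6* window held 1. No match in these windows overlapped a match to a different motif. CpG dinucleotides numbered 2 for *Slc1a3*, 25 for *Slc6a11*, 7 for *Slc17a6*, and 9 for *Slc17a7*, against a median of 6 over all promoters. A match describes letters in the window and not a bound site.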

How the data were processed

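Stranded mRNA libraries of 3 infarcts and 3 contralateral cortices were used. The authors trimmed reads with Trimmomatic 0.32, aligned them to GRCm38 with STAR 2.5.2b, and deposited whole counts per Ensembl gene from htseq-count, without normalization. The version, annotation, and strand setting of the counting are not given in the sources used here. Entries that name no gene held between 26.6% and 34.3% of tallied reads and were not used. Identifiers were matched to GENCODE M21, which held 45229 of 46078. The 8 genes, the related genes, and the marker lists were chosen with earlier results of these data known.

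Tests were run with edgeR 4.0.16 in R 4.3.3 (filterByExpr by region, TMM, robust glmQLFit, and glmQLFTest with region as the only term). *p* values were adjusted by the Benjamini-Hochberg method over 15554 genes. The biological coefficient of variation was 0.220. SEs were computed from the fold change and its F statistic, and intervals from the t distribution. RPKM used TMM-scaled CPM and the union of GENCODE exons. The procedure was tested on simulated data. Named genes are the 8 genes, the related genes except 2, and, of the marker lists, the most abundant gene in a region and defining genes with few counts. Some genes of the related and marker lists are part of the counts, medians, and sums but are not reported here by name. *Cux2*, *Fibcd1*, and *Neurod6* and other markers named beside infarct 3 were chosen after their values were seen. Promoters came from RefSeq GRCm38.p6, which matched all 8 genes. Summaries were made with pandas 2.3.3 and SciPy 1.17.1 under Python 3.11.15, and plots with matplotlib 3.10.9.

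The alternatives were DESeq2 1.42.0, limma voom 3.58.1, RLE, upper quartile, and library total scaling, no filter on low counts, at least 10 counts in every library, thinning to the smallest library, no fold change threshold, the replicate number as a block, and each library left out in turn.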

Additional observations from a re-analysis of the deposited data

How the results depend on the processing

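Of the 8 genes, 6 were downregulated under each alternative except that 5 were without a filter on low counts, where *Slc1a1* was not called, and no gene changed direction. *Slc1a3* and *Glul* were called under none of them. The adjusted *p* was under 0.05 for *Slc1a3* with edgeR without infarct 3 (0.0183) and for *Glul* with limma voom (0.0457) and with edgeR without infarct 1 (0.0400), each with a fold change below 2. Under the other alternatives it ranged up to 0.413 and 0.361. Genes called between regions numbered 7255, from 5293 to 10111 over the alternatives, and from 7194 to 7782 when libraries were left out singly. The median log2 fold change of the neuronal genes ranged from -3.39 (without infarct 3) to -2.24 with a library left out, and that of the glial genes from -1.40 to -1.12. With a library left out, the related genes called ranged from 17 to 22, and over all alternatives from 17 to 23. With the replicate number as a block, 7167 genes, 6 of the 8 genes, and 18 related genes were called. Deviations of same-numbered samples from their group means correlated at -0.19, 0.10, and 0.001, and those of differently numbered samples at -0.24 to 0.18. No infarct correlated best with the cortex of its own number, which gives no support for pairing by number and does not exclude it. DESeq2 called 7984 genes, 6 of the 8, and 18 related genes. Library totals moved the median of all genes by 0.20, and *Slc1a4* (-0.95) and *Abat* (-0.88) then fell short of a fold change of 2, while *Gpt2* (1.03) and *Slc38a5* (1.14) passed it. The cause was not tested. Among related genes named here, further calls were lost for *Slc1a4* without infarct 1 and for *Abat* without infarct 2 or contralateral cortex 2, and for *Slc7a11* without a filter on low counts. *Slc1a6*, with 4 and 9 counts in infarcts 1 and 2, was not tested with at least 10 counts in every library. Calls were gained for *Got2*, *Gpt*, *Pc*, and *Slc38a5* without infarct 3, for *Gpt* with thinning (-1.02), upper quartile scaling (-1.01), and without contralateral cortex 3 (-1.09), for *Got2* without contralateral cortex 2 (-1.08), and for *Pc* without contralateral cortex 1 (-1.03). *Slc17a6* had between 14 and 60 counts in an infarct, and the SE of its log2 fold change was 0.59, against 0.24 for *Slc1a2*.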

Other observations

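The other marker lists describe the tissue in which the carrier transcripts were measured. Of 8 oligodendrocyte markers, 3 were upregulated and none downregulated in infarcts, with a sum of 4206, 4858, and 6852 CPM in infarcts 1, 2, and 3 and between 2212 and 2606 CPM in contralateral cortices. Of 4 markers of oligodendrocyte precursors, 1 was upregulated and 3 were not called. Of 9 markers of microglia and macrophages, 8 were upregulated, with a median log2 fold change of 2.65, led in abundance by *Csf1r*. Of 6 endothelial markers, 3 were upregulated. Of 6 striatal markers, 1 was upregulated and 1 was downregulated. Their sum was lowest in infarct 1, with 36.1, 121, and 86.3 CPM in infarcts 1, 2, and 3. It was between 189 and 202 CPM in contralateral cortices. Of 4 hippocampal markers, 1 was upregulated and 3 were not called. Without infarct 3, 2 oligodendrocyte markers were upregulated, and 1 marker each of oligodendrocyte precursors and of the hippocampus was downregulated. *Lhx9*, listed among thalamic markers, had 84 counts in infarct 3 and 0 counts in infarcts 1 and 2.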
